A study of Mus musculus with 16 samples.

Results

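The baseline microRNA content of the mouse heart was described from the control hearts of a study that used repeated attack by aggressor mice to model post-traumatic stress disorder. The control hearts were chosen by their source label and make up 4 of the 16 samples of the series, the other 12 being hearts of mice exposed to an aggressor. Control animals were C57BL/6 mice, an inbred laboratory strain, that were placed in boxes of wire mesh within a large cage that held no aggressor. Their titles carry the code C2R1, whose letter C the labels do not spell out. No age, sex or transgene is given in the labels. Total RNA came from the hearts of individual mice, so each sample mixes heart muscle cells, vessel cells, fibroblasts and the blood left in the organ. The RNA was labelled with the dye Hy5 (replicates 2 and 4) or Hy3 (replicates 1 and 3) and hybridised to 2-colour arrays of locked nucleic acid probes. Replicates 3 and 4 shared an array, as did replicates 1 and 2. The order below is an order of probe brightness. Probes differ in how strongly they bind and fluoresce, so brightness ranks signal, not copies per cell.

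MicroRNAs are short RNAs that guide Argonaute proteins to messenger RNAs, mostly through the seed, the bases near their 5′ end, and so lower the output of their targets. Each precursor hairpin can give a microRNA from either strand, and in most precursors 1 strand, the guide, accumulates while the other, marked with a star in older names, is degraded. Heart muscle is known for muscle-restricted microRNAs, some of which lie inside myosin heavy chain genes and are made together with them, and heart tissue also holds microRNAs of endothelium, smooth muscle, fibroblasts and blood.

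The mature sequences of the brightest microRNAs and of the families described below are shown because shared seeds define the families, and because some family members differ at very few bases. They come from the RefSeq annotation of mouse build GRCm38.p6 and were found by microRNA name, each printed 5′ to 3′ with the seed, bases 2 to 8, in capitals. Of the mouse probes above background in all samples, 43 named microRNAs matched, among them 19 of the 30 brightest. Other bright microRNAs, such as miR-709, miR-30b, miR-378 and miR-133a, are named only.
miR-22: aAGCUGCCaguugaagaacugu
miR-451: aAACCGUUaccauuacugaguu
miR-208a-3p: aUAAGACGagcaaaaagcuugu
miR-208b: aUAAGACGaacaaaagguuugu
miR-499: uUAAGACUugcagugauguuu
miR-133b: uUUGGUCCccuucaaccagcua
miR-126-3p: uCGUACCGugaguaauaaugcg
miR-24: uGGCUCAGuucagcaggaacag
miR-30c: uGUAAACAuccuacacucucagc
miR-30e: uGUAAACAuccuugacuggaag
miR-30a: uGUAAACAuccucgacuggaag
miR-29b: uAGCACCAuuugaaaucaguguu
miR-29a: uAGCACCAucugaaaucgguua
miR-29c: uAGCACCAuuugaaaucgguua
let-7g: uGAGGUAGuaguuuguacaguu
let-7b: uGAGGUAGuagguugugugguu
let-7i: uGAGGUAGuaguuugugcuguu
let-7c: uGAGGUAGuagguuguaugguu
let-7d: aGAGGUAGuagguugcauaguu
let-7e: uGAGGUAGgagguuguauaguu
miR-98: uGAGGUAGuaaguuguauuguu
let-7a: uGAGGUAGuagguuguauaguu
let-7f: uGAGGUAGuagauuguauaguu
Among the 43 matched microRNAs, 34 began with U, and their median length was 22 bases. The positions of the leading precursors tie several of them to known genes. The mature miR-208a-3p lies at chr14:54949072-54949093 on the minus strand within Myh6, the gene of the main adult myosin heavy chain of the mouse heart. The sequence of miR-499 lies at chr2:155622893-155622913 on the plus strand within Myh7b, another myosin gene. The mature miR-126-3p lies at chr2:26591402-26591423 on the plus strand within Egfl7, a gene of endothelial cells. The mature miR-22 lies at chr11:75463772-75463793 on the plus strand within its own host transcript, Mir22hg.

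The arrays held 11204 features for 2668 probes, of which 1023 named a mouse microRNA, each spotted 4 times. Signal is the spot intensity after the extraction software's own background subtraction, on the log2 scale, averaged over spots not marked as outliers and scaled to a common 75th percentile of bright probes. Between 1.05% and 2.83% of mouse spots were marked and left out per sample, and no spot was saturated. Background was set in each sample at the 95th percentile of 143 probes for microRNAs of human viruses. That level was 4.85 and 4.82 in the Hy5 hearts and 6.61 and 6.08 in the Hy3 hearts, on the scaled log2 signal.

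A small part of the mouse probes gave signal above background. In the Hy5 hearts 200 and 199 mouse probes exceeded it, and in the Hy3 hearts 120 and 163. Above background in all 4 hearts were 110 probes (10.8% of 1023), 122 were above it in 1 to 3 hearts, and 791 in none. The numbers near the limit were sensitive to it, with 60 probes in all 4 hearts at the 99th percentile of the virus probes and 32 at their mean plus 3 SD. The probes nearest to the limit show how fine it is. On the inner side the last 5 were miR-1a-1*, miR-1264-3p, miR-3100-3p, the miR-3107/miR-486 probe and miR-199a-5p, with smallest margins of 0.01 to 0.09 log2 over the 4 hearts. On the outer side miR-487b, miR-693-5p, miR-335-5p, miR-185 and miR-206 missed it in 1 heart by 0.01 to 0.05 log2.

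Few probes held much of the signal. The 10 brightest probes with a value in every heart held 38.1% and 39.2% of the summed mouse probe signal in the Hy5 hearts and 28.1% and 32.7% in the Hy3 hearts, on average 34.5% ± 5.13 (SD, n = 4). The brightest 30 held 53.1% ± 9.28 (SD, n = 4) and the brightest 100 held 70.2% ± 11.7 (SD, n = 4). To reach 50% of the signal took 18 and 17 probes in the Hy5 hearts, against 59 and 33 in the Hy3 hearts. The dyes did not overlap in these shares. The 110 probes above background held 81.0% and 80.9% in the Hy5 hearts and 57.9% and 65.6% in the Hy3 hearts. Counted within those 110 probes alone, the share of the 10 brightest was 47.1% and 48.4% in the Hy5 hearts and 48.6% and 49.9% in the Hy3 hearts, and the dyes lay close together.

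**Figure D1:**
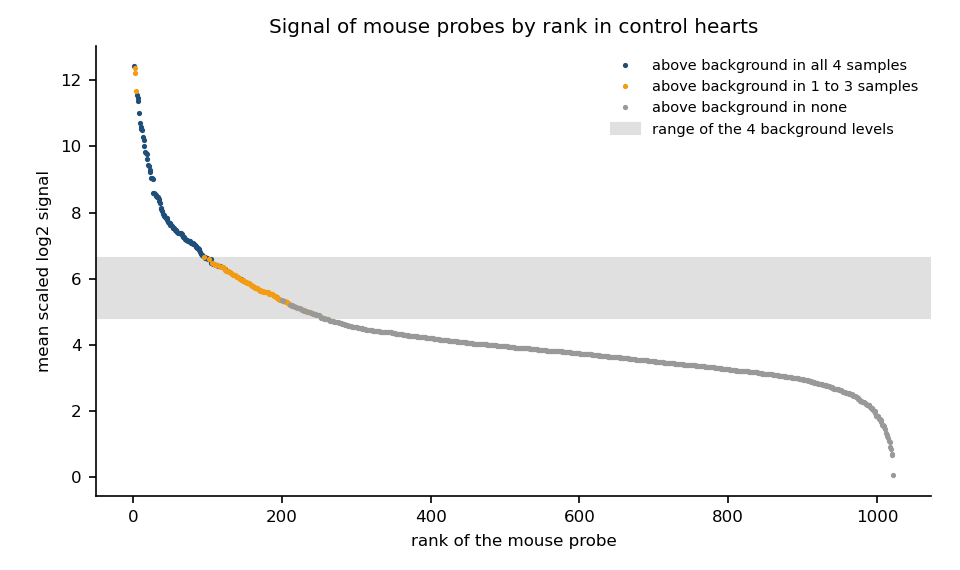
Mean scaled log2 signal over the control hearts (y axis) of each mouse probe against its rank (x axis), coloured by the number of hearts in which the probe exceeded background. The grey band spans the background levels of the 4 hearts, 4.82 to 6.61, and the curve enters it after about the first 100 probes.

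The brightest probe by mean signal was miR-22, a microRNA abundant in heart and skeletal muscle and studied in cardiac growth. Its first place depended on the processing, as given below. It measured 12.05 and 12.42 on the scaled log2 signal in the Hy5 hearts and 12.56 and 12.71 in the Hy3 hearts, with a mean of 12.43 ± 0.29 (SD, n = 4). It ranked first or second in every heart and alone held 8.09% ± 1.20 (SD, n = 4) of the summed signal. Both Hy3 values stood above both Hy5 values.

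The next 3 places went to probes with every spot marked as an outlier in at least 1 heart, so that their means rest on fewer hearts. Other bright probes kept a value in every heart but also lost spots. In each of replicates 1 and 2, miR-22 kept 2 of its 4 spots. There miR-133b, miR-709, miR-23b, miR-133a and miR-16 kept 1 spot each, and miR-207 kept 1 in Hy5 replicate 4. The probe of miR-451, a red cell microRNA that is cut by an Argonaute protein without Dicer, had values in 2 hearts, 12.46 in Hy5 replicate 4 and 12.30 in Hy3 replicate 3. The probe of miR-208a-3p, a heart-restricted microRNA that controls the switch between myosin types, had values in 3 hearts, 11.90 in Hy5 replicate 4 and 12.38 and 12.35 in the Hy3 hearts. The probe of miR-720, a name since withdrawn from the microRNA registry because the RNA is thought to be a transfer RNA fragment, had a value of 11.68 in Hy3 replicate 3 alone. One more bright probe, miR-143 of smooth muscle, had every spot marked in every heart and thus no value or rank.

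With marked spots kept, all 4 of these probes were among the 10 brightest. On that setting miR-208a-3p averaged 11.96 ± 0.46, miR-451 11.94 ± 0.61, miR-720 11.37 ± 0.22 and miR-143 10.71 ± 0.24 (SD, n = 4), in places 2, 3, 4 and 9. They are left out of every share given here unless marked spots are said to be kept. Separate probes that carry only the rat or human name were also read, and how well they bind the mouse RNAs was not tested. The probe for rat miR-208 measured 10.92 and 11.15 in the Hy5 hearts and 11.82 and 11.66 in the Hy3 hearts, with a mean of 11.39 ± 0.42 (SD, n = 4). The probe for human miR-720 averaged 11.95 ± 0.23 (SD, n = 4).

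Next in order came places 5 to 15. The probe of miR-133b, a muscle microRNA, averaged 11.56 ± 0.13 and miR-709 averaged 11.47 ± 0.21 (SD, n = 4). The endothelial miR-126-3p was among the steadiest bright probes, with 11.35 and 11.40 in the Hy5 hearts and 11.29 and 11.42 in the Hy3 hearts, an SD of 0.06. The values of both dyes overlapped. After it came miR-30c (11.01 ± 0.07), miR-29b (10.70 ± 0.32), miR-24 (10.58 ± 0.15), miR-30b (10.54 ± 0.08), miR-378 (10.50 ± 0.21), miR-29a (10.28 ± 0.19), miR-23b (10.18 ± 0.11) and miR-133a (10.02 ± 0.09), each the mean scaled log2 signal with its SD over 4 hearts. Neighbours in this stretch mostly stood closer than 1 SD, so their exact order is not fixed by 4 hearts.

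Places 16 to 30 mixed known heart microRNAs with names of little known function. They were miR-125b-5p (9.84 ± 0.18), miR-30e (9.82 ± 0.18), a joint probe for miR-378 and miR-378b (9.76 ± 0.13), miR-491* (9.63 ± 0.07), miR-1983 (9.42 ± 0.28), miR-1186b (9.40 ± 0.38), miR-16 (9.29 ± 0.14), miR-691 (9.23 ± 0.13), miR-23a (9.04 ± 0.32), miR-207 (9.04 ± 0.58), let-7g (9.02 ± 0.29), let-7b (8.59 ± 0.25), let-7i (8.58 ± 0.05), miR-582-3p (8.56 ± 0.19) and let-7c (8.54 ± 0.10). Of these, miR-207 and miR-1186b were the least alike between dyes. The probe of miR-207 measured 9.31 and 9.72 in the Hy5 hearts and 8.43 and 8.70 in the Hy3 hearts. In 23 cases a probe was among the 30 brightest of every heart, and 38 probes reached that set in at least 1 heart.

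**Figure D2:**
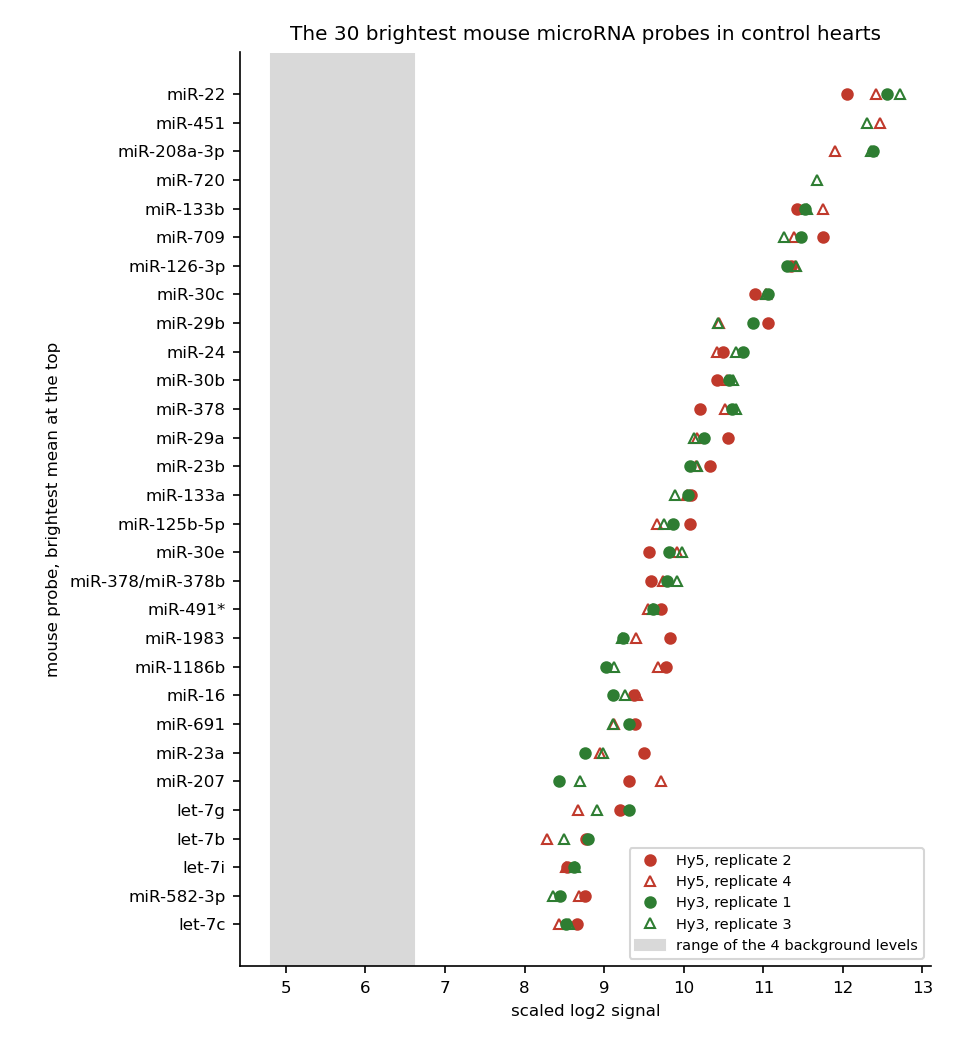
Scaled log2 signal (x axis) of the 30 brightest mouse probes (y axis, brightest mean at the top) in each control heart, with Hy5 hearts in red and Hy3 hearts in green. Points of a probe mostly lie within 0.5 log2 of each other, the widest spread being that of miR-207, and miR-451, miR-208a-3p and miR-720 show only the hearts in which unmarked spots were left.

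Muscle microRNAs were prominent. Of 6 probes on the heart and skeletal muscle list, 3 were above background in all 4 hearts, and miR-208a-3p was above it in each of the 3 hearts in which it had a value. The list's median scaled log2 signal was 8.94, against 3.91 over all mouse probes. The main muscle members were miR-133b and miR-133a, which restrain muscle growth genes, and miR-499, the microRNA of Myh7b. The probe of miR-499 measured 7.90 in both Hy5 hearts and 7.96 and 7.67 in the Hy3 hearts.

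The 2 myosin microRNAs of the working heart and of slow muscle lay far apart. The probe of miR-208b, encoded at chr14:54975710-54975731 on the minus strand within Myh7, the slow myosin gene, measured 5.29 and 4.98 in the Hy5 hearts and 5.78 and 5.71 in the Hy3 hearts. It was above background in 2 hearts, both of them Hy5. Its mature sequence differs from that of miR-208a-3p at 3 positions and shares the seed, whereas the seed of miR-499 differs from theirs at its last base alone. The probe of miR-206, a skeletal muscle microRNA that shares the host transcript Lincmd1 with miR-133b, averaged 5.84 ± 0.77 (SD, n = 4) and was above background in 3 hearts. No probe with a mouse name for the main strand of miR-1, a leading muscle microRNA, was analysed here. A probe that names only rat miR-1 measured 6.62 and 6.51 in the Hy5 hearts and 7.41 and 6.91 in the Hy3 hearts, above background in all 4. How well that probe binds mouse miR-1 was not tested, so its signal does not place miR-1 in the order. The star strands miR-1a-2* and miR-1a-1* averaged 7.54 ± 0.14 and 6.44 ± 0.17 (SD, n = 4), both above background in all hearts.

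With marked spots kept, the muscle list held 9.44% and 11.3% of the summed signal in the Hy5 hearts and 8.87% and 10.1% in the Hy3 hearts. Without miR-208a-3p, whose spots were marked, it held 6.49% ± 1.33 (SD, n = 4). Leaving out Hy5 replicate 2, the heart in which miR-208a-3p lacks a value, lets that probe enter the share, which was then 12.1% ± 1.55 (SD, n = 3).

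Other cell types of the organ were present in different degrees. In total RNA from whole hearts, a low value cannot tell fewer cells of a type from less of the microRNA per cell. Of the 4 endothelial probes, miR-126-3p and its partner strand miR-126-5p (7.37 ± 0.07) were above background in all hearts, miR-222 was above it in 1 heart and miR-221 in none. The smooth muscle microRNA miR-145, a partner of miR-143, averaged 7.47 ± 0.19 (SD, n = 4). Among 4 fibroblast probes only miR-199a-5p, at 6.92 ± 0.22, exceeded background in all hearts, and miR-214 did so in 3, the joint probe for miR-199a-3p and miR-199b in 2 and miR-21 in 1.

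Blood-cell microRNAs covered a wide range of signal. Besides miR-451, the erythroid list had miR-144, at 7.69 and 8.61 in the Hy5 hearts and 7.98 and 8.28 in the Hy3 hearts, miR-16 at 9.29 ± 0.14 and the miR-3107/miR-486 probe at 5.97 ± 0.61 (SD, n = 4). Of 4 erythroid probes, 3 were above background in all hearts. Of 8 leukocyte probes, miR-223 (6.60 ± 0.34) and miR-142-3p (6.46 ± 0.60) were, while miR-155, miR-146a and miR-181a were above it in no heart, miR-146b was in 2, and miR-150 and miR-142-5p were in 3. With marked spots kept, the erythroid list held 4.90% and 9.20% of the signal in the Hy5 hearts and 4.50% and 6.63% in the Hy3 hearts. Both hearts of the array of replicates 3 and 4 then stood above both hearts of the other array, where every miR-451 spot was marked. With marked spots and miR-451 left out, the list held 1.54% and 1.89% in the Hy5 hearts. In the Hy3 hearts it held 1.04% and 1.35%, and the arrays overlapped. How much blood each heart kept was not tested.

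Markers of tissues outside the heart mostly stayed at background, as did most mouse probes. Over all 1023 mouse probes, 791 were above background in no heart and 110 in all 4, so these low counts do not set the lists apart. None of 11 epithelial probes and none of 3 liver probes exceeded it in any heart, the highest being miR-203 at 4.99 ± 0.83 and miR-194 at 4.69 ± 0.53 (SD, n = 4). The dimmest of each were miR-182 at 2.94 and miR-192 at 3.61, and miR-122, the defining liver microRNA, stood at 4.28 ± 1.34 (SD, n = 4). Of 8 neuron probes none was above background in all hearts. Only miR-128 was above it in 1 heart, Hy3 replicate 1, at 7.92 against 3.21 to 5.65 in the other hearts. The remaining neuron probes, miR-9, miR-124, miR-132, miR-134, miR-137, miR-138 and miR-218, had means from 0.67 for miR-137 to 4.63 for miR-9. In the epithelial list, miR-200a, miR-200b, miR-200c, miR-141, miR-429, miR-205, miR-375, miR-183 and miR-96 lay between 3.43 and 4.30.

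**Figure D3:**
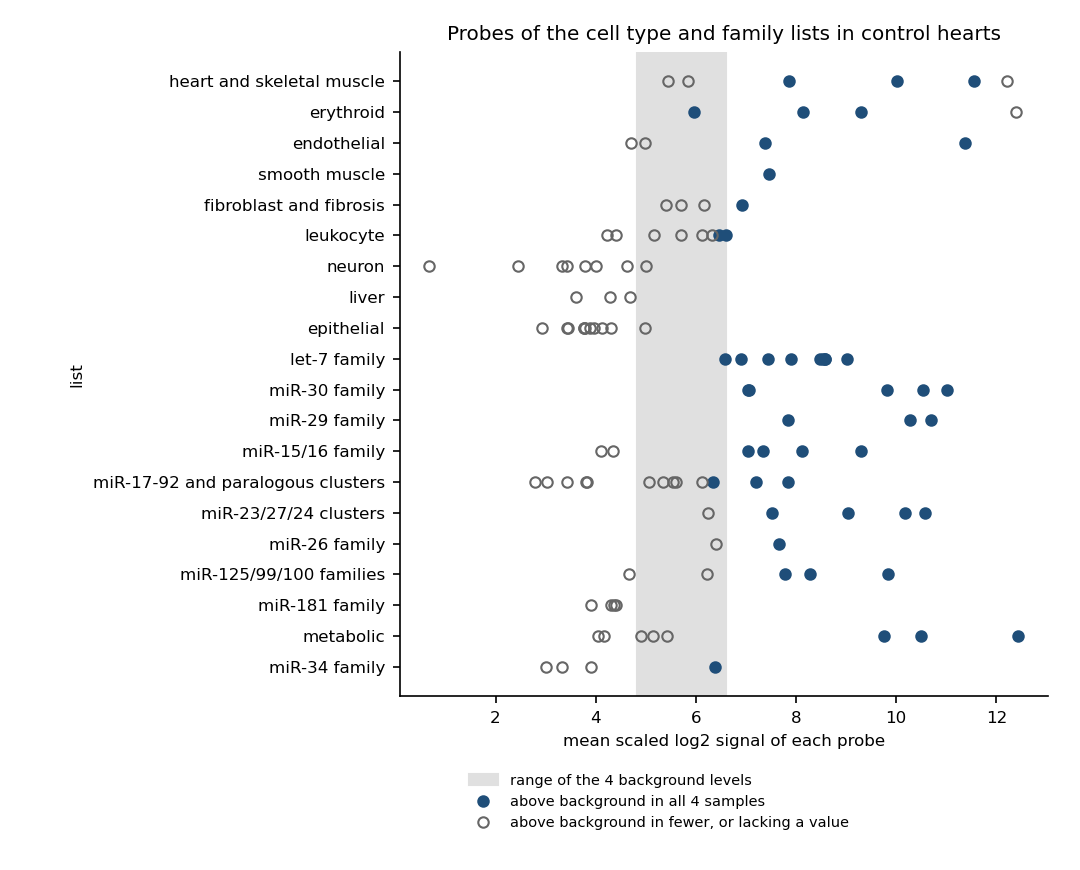
Mean scaled log2 signal (x axis) of each probe on the cell type and family lists (y axis), filled where the probe was above background in all control hearts and open where it was above it in fewer or lacked a value, as for miR-451 and miR-208a-3p. Every let-7, miR-30 and miR-29 probe is filled, while the epithelial, liver and neuron probes lie in or left of the grey band of background levels. The probe of miR-143 has no value and is not drawn.

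Families that share a seed gave a large part of the signal. The miR-30 family, which is abundant in heart muscle cells and represses connective tissue growth factor, had all 5 members above background in all hearts. They held 7.19% and 8.09% of the summed signal in the Hy5 hearts and 5.60% and 6.69% in the Hy3 hearts, with a mean of 6.89% ± 1.04 (SD, n = 4). Counted among probes above background in all hearts alone, they held 8.88% and 10.0% in the Hy5 hearts. In the Hy3 hearts that share was 9.67% and 10.2%, so the order of the dyes depends on the probes counted. Members ranged from 11.01 for miR-30c to 7.04 for miR-30d. The sequences of miR-30c and miR-30e both lie on the minus strand of chromosome 4 within Nfyc, 3053 bases apart, and both were among the 30 brightest probes. The miR-30c sequence has a further copy on chromosome 1, so its signal cannot be assigned to 1 precursor. The miR-30a and miR-30e sequences differ at 1 position, yet miR-30a averaged 7.07 ± 0.11 and miR-30e 9.82 ± 0.18 (SD, n = 4).

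The miR-29 family, which represses collagens and other matrix genes, had all 3 members above background. It held 6.59% and 4.65% in the Hy5 hearts and 3.83% and 3.63% in the Hy3 hearts, with Hy5 replicate 2 the highest. Counted among probes above background in all hearts alone, it held 8.14% and 5.75% in the Hy5 hearts and 6.62% and 5.53% in the Hy3 hearts. On that count both hearts of the array of replicates 1 and 2 stood above both hearts of the other array. The probe of miR-29b measured 11.05 and 10.44 in the Hy5 hearts and 10.87 and 10.43 in the Hy3 hearts, higher in both hearts of the array of replicates 1 and 2. The mature miR-29a and miR-29c differ at 1 position, and their means were 10.28 and 7.85.

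The let-7 family, which is high in differentiated tissue and is held down by Lin28 in early development, had all 9 members above background in all hearts. It held 4.67% and 3.94% in the Hy5 hearts and 3.42% and 3.47% in the Hy3 hearts, with a mean of 3.88% ± 0.576 (SD, n = 4). Counted among probes above background in all hearts alone, it held 5.76% and 4.87% in the Hy5 hearts. In the Hy3 hearts that share was 5.91% and 5.30%, so the order of the dyes depends on the probes counted. Members ranged from 9.02 for let-7g to 6.58 for let-7f, a gap of 2.44 log2. All 9 share the seed GAGGUAG, and the 36 pairs of mature sequences differ at 1 to 6 positions. Probes for sequences this close may bind each other's targets, and this was not tested.

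The miR-23/27/24 clusters, made as joint transcripts and active in vessels, held 5.14% ± 0.984 (SD, n = 4), with miR-24 the highest and miR-27b, at 6.24, the lowest. Of their 5 probes, 4 were above background in all hearts and miR-27b was in 3. In the cluster on chromosome 8, miR-23a, miR-27a and miR-24 lie on the plus strand with 143 and 127 bases between them, at 9.04, 7.52 and 10.58. The miR-24 sequence has a further copy on chromosome 13, so its signal belongs to more than 1 precursor.

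The list of microRNAs tied to metabolism was carried by few members. It held 11.7% ± 1.57 (SD, n = 4), of which miR-22 made up most, followed by the miR-378 probes, a microRNA encoded with a coactivator of mitochondrial genes. The other 5 probes of that list were not above background in all hearts, down to miR-696 at 4.04. In the miR-15/16 family, which halts the cell cycle, 4 of 6 probes were above background, from miR-16 at 9.29 to miR-497 at 4.11. The miR-125/99/100 families, which share clusters with let-7 members, had 3 of 5, from miR-125b-5p at 9.84 to miR-100 at 4.67.

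Smaller contributions came from lists whose members are associated with growth and stress. Of 13 probes of the miR-17-92 and paralogous clusters, which drive proliferation, 3 were above background in all hearts, led by miR-19b at 7.85 and with miR-18a lowest at 2.79. The miR-26 family had miR-26b (7.67) above background in all hearts and miR-26a (6.41) in 3. In the miR-34 family, a set of p53 targets, miR-34a averaged 6.39 ± 0.44 (SD, n = 4) and was above background in all hearts, and miR-34c was lowest at 3.01. None of the 4 miR-181 probes exceeded background in any heart, from miR-181a at 4.40 to miR-181c at 3.90.

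Neighbouring microRNAs were near in signal in some places and far apart in others. Among the matched sequences, 22 pairs lay on the same strand of a chromosome less than 10000 bases apart. The mature miR-144 and miR-451 lie 119 bases apart on the plus strand of chromosome 11, with means of 8.14 and 12.38. The let-7c and let-7b sequences on chromosome 15 lie 687 bases apart, with means of 8.54 and 8.59. The let-7c sequence has a further copy on chromosome 16, so its signal cannot be assigned to 1 precursor. In the Spaca6 gene on chromosome 17, miR-99b, let-7e and miR-125a-5p follow each other at means of 6.23, 7.91 and 8.28. These are descriptions of probe signal, since each probe has its own affinity.

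Star strands were a minority of the bright probes. Of 328 probes with a star name, 23 (7.01%) were above background in all hearts, against 64 of 436 (14.7%) without a strand mark and 23 of 259 (8.88%) named by arm. Star probes held 12.5% and 14.0% of the summed signal in the Hy5 hearts and 19.1% and 17.3% in the Hy3 hearts, with a mean of 15.7% ± 3.03 (SD, n = 4). Counted among the 110 probes above background alone, the 23 star probes held 8.54% and 9.85% in the Hy5 hearts and 9.94% and 9.60% in the Hy3 hearts.

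Both strands of a precursor had a probe in 279 star pairs, and in 59 of them at least 1 strand was above background in all hearts. The star strand was the brighter in 16 of the 59 and the other strand in 43, each time in 4 of 4 hearts. In 15 pairs only the star strand and in 40 only the other strand was above background, which largely fixes the brighter strand. In the pairs with neither above background the strands were not put in order. Both strands were above background in 4 pairs, those of miR-22, miR-30e, miR-133a and miR-669c. The star strand of the bright miR-133b was not above background. The miR-22* probe averaged 6.86, which was 5.58 log2 below miR-22. For 23 of 126 pairs named by arm, at least 1 arm was above background, the 5p arm being brighter in 8 and the 3p arm in 15.

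Star strands that outshone their partners included known and obscure precursors. The brightest star probe was miR-491*, at 9.72 and 9.55 in the Hy5 hearts and 9.62 and 9.62 in the Hy3 hearts, while miR-491 was above background in no heart. In miR-140, a cartilage microRNA whose 3p strand is known to dominate in several tissues, the star strand measured 7.15 and 7.14 in the Hy5 hearts and 7.05 and 7.23 in the Hy3 hearts, and the other strand was above background in no heart. The further pairs with the largest star excess were miR-3070a, miR-467a, miR-467e, miR-669b, miR-300, miR-433, miR-669d and miR-297c, with star means from 6.79 to 8.49. The partner strands of all 10 pairs were not above background in all hearts, so no size of the excess is given. Several of these belong to the large repeated miR-467 and miR-669 families of a mouse-specific cluster, whose members are near copies, so their probes may share targets. The next brightest star probes were the miR-669d* probe (8.49), the miR-3070a* probe (8.48), miR-669c* (8.36), miR-669l* (8.03), miR-467e* (7.67), miR-669p* (7.54), miR-1a-2* (7.54), miR-467a* (7.46) and miR-138-1* (7.39).

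**Figure D4:**
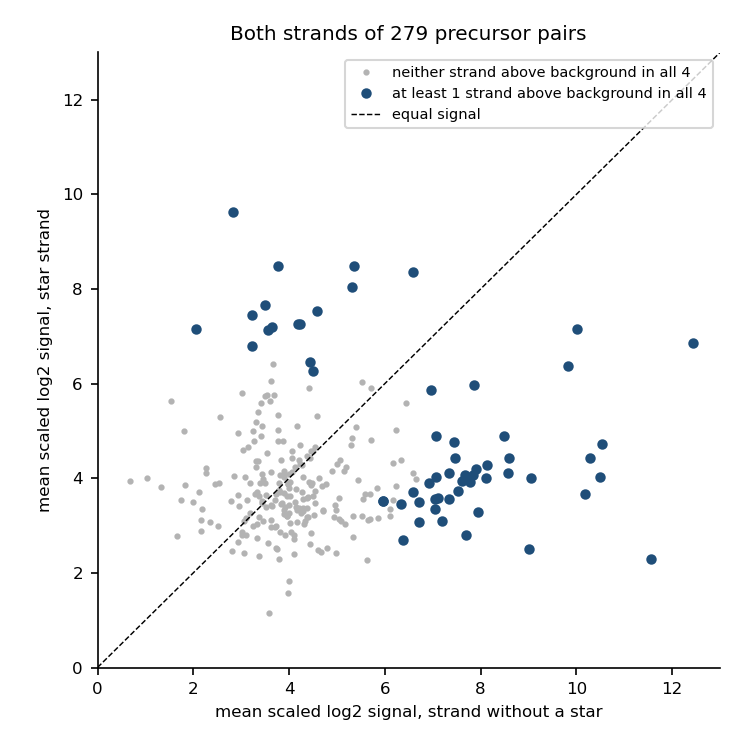
Mean scaled log2 signal of the star strand (y axis) against that of the strand without a star (x axis) for 279 precursors, with the 59 pairs that had a strand above background in all control hearts in blue. The 16 pairs above the dashed line of equal signal have the brighter star strand, and the other 43 lie below it. Values under the background levels of 4.82 to 6.61 are not read as an order.

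The hearts agreed closely over bright probes. Across the 110 probes above background, which share the same probes and spots and are not independent replicates, Pearson's r between hearts was 0.953 to 0.984 and Spearman's rho 0.920 to 0.963 over the 6 pairs. Hearts of the same dye on different arrays had a mean r of 0.979, hearts of the same array in different dyes 0.966, and pairs that shared neither 0.958. Over all 1019 probes with 4 values, hearts of the same dye had r of 0.965 (Hy5) and 0.903 (Hy3), and pairs across dyes 0.775 to 0.794. The median SD over hearts was 0.21 log2 for probes above background and 1.24 for probes above it in none.

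Single probes differed in how steady they were. The steadiest above background were miR-19b (SD 0.02), let-7i (0.05) and miR-126-3p (0.06). The least steady was miR-505-5p (SD 0.79), at 5.23 and 5.40 in the Hy5 hearts and 6.82 and 6.48 in the Hy3 hearts. The others among the 10 largest SDs were miR-130a, the miR-3107/miR-486 probe, miR-142-3p, miR-207, miR-152, miR-669c*, miR-667, miR-503* and miR-99a, with SDs from 0.46 to 0.65.

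The dyes were compared with a limma model with a dye and an array term. Each dye labelled its own 2 hearts, so a difference between dyes cannot be told apart from a difference between those hearts. Of 1019 mouse probes, 671 (65.8%) were called at an adjusted p under 0.05, with 8 (0.785%) higher and 663 (65.1%) lower in Hy5. The split turned with the scaling, being 194 higher and 237 lower without scaling and 326 higher and 100 lower with each heart centred on its median mouse probe. The median Hy5 minus Hy3 difference of all probes was -1.72 log2 with the scaling used here, -0.29 without scaling and 0.27 with median centring. Nearly all calls were of dim probes, since 628 of the 663 lower probes and 7 of the 8 higher ones were above background in no heart. The 8 higher in Hy5 were miR-140, miR-34c, miR-106b*, miR-181a-2*, miR-466g, miR-701*, miR-582-5p and miR-590-3p. The 10 with the largest negative differences were miR-146b*, miR-1933-3p, miR-293*, miR-101a*, miR-496, miR-1969, miR-106a*, miR-544-3p, miR-3075* and miR-344, all above background in no heart, so no fold is given.

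When only the 110 bright probes were fitted, 24 (21.8%) were called between dyes, 3 (2.73%) higher and 21 (19.1%) lower in Hy5. The 3 higher in Hy5 were miR-207, miR-667 and miR-1186b, with Hy5 minus Hy3 differences of 0.95, 0.84 and 0.65 log2, a standard error of 0.17 and limma adjusted p of 6.35e-06, 6.18e-05 and 0.00218. For miR-667 the values were 8.34 and 8.39 in the Hy5 hearts and 7.43 and 7.62 in the Hy3 hearts, which did not overlap. The most negative difference was that of miR-505-5p, -1.33 log2 with limma adjusted p = 3.57e-10. Next came the miR-3107/miR-486 probe, at 5.30 and 5.64 in the Hy5 hearts and 6.66 and 6.28 in the Hy3 hearts, then miR-152 (-0.93), miR-142-3p (-0.83) and miR-503* (-0.82). Among the 27 of the 30 brightest probes that had 4 values, 2 were called, miR-207 and miR-1186b. The fit has 1 residual degree of freedom, and in this subset the moderation gave every probe the same variance.

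**Figure D5:**
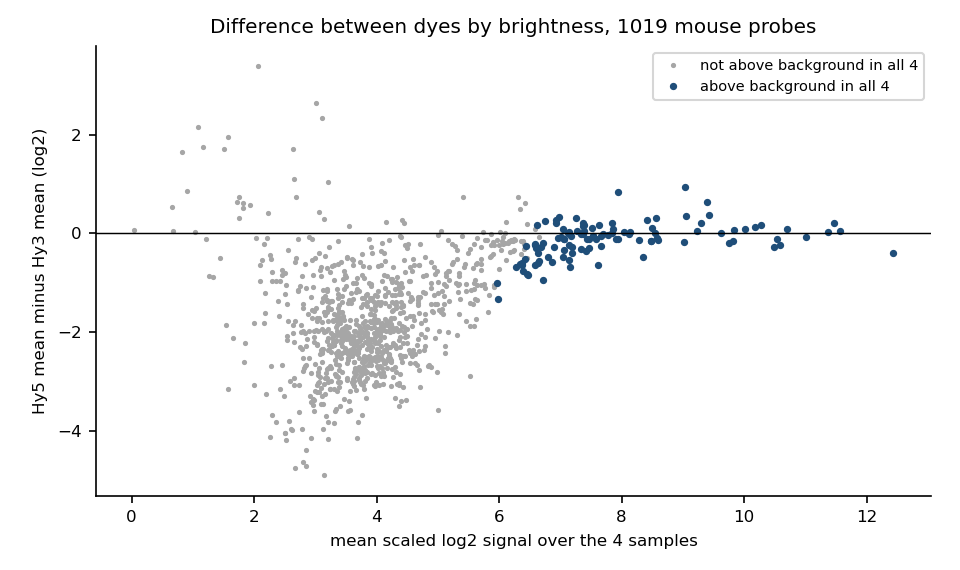
Hy5 mean minus Hy3 mean on the scaled log2 signal (y axis) against the mean over the control hearts (x axis) for 1019 mouse probes, with the 110 probes above background in all hearts in blue. Bright probes lie near 0, between -1.33 and 0.95, and dim probes mostly lie below 0, with a median of -1.72 over all probes.

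The arrays were compared in the same model. The array of replicates 3 and 4 against the array of replicates 1 and 2 gave 0 of 1019 probes (0%) at an adjusted p under 0.05 by limma, with 60 at an unadjusted p under 0.05. Without scaling 11 probes were called, 0 higher and 11 lower on the array of replicates 3 and 4, and with median centring 14, 1 higher and 13 lower. Fitted over the 110 bright probes alone, 3 (2.73%) were called, 1 (0.909%) higher and 2 (1.82%) lower on the array of replicates 3 and 4. The probe of miR-99a had 7.39 and 7.37 on the array of replicates 3 and 4 and 8.20 and 8.16 on the array of replicates 1 and 2, a difference of -0.80 log2 (limma adjusted p = 0.000864). The probe of miR-144 was higher on the array of replicates 3 and 4, by 0.61 log2 (limma adjusted p = 0.0195). The probe of miR-130a was also called, with a difference of -0.77 log2 (limma adjusted p = 0.000864), and rests on Hy3 replicate 1, at 8.57 against 7.17 to 7.42 in the other hearts. As each array held its own 2 hearts, array and animal cannot be told apart.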

How the data were processed

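Analysis covered the 4 control samples, on 2 arrays, and no comparison with exposed groups was made. Per the file headers, the authors' scans were read with Agilent Feature Extraction 9.5.3.1, and the deposited intensity per spot and channel is the net signal less a fitted low-signal surface and a constant. This intensity was floored at 1, taken to log2 and averaged over spots not marked as non-uniform or population outliers, since spots of 1 probe are technical repeats. Green was taken as Hy3 and red as Hy5, from the labels. Each sample was shifted to the same 75th percentile over probes above background. Shares use the linear value of each probe's mean log2 signal over the 1019 mouse probes with 4 values.

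A deposited table of log2 values, whose making and centring are not given in the sources used here, has a median of 3.76 in each column. Over mouse probes, each column's correlation with its own channel's processed intensity on the log2 scale was 0.964 to 0.995, and with the other channel's 0.847 to 0.918, and the table served as an alternative. The deposited files also carry other columns, yes-or-no marks per spot. The mark for signal well above background was set for at least 99.98% of mouse spots, so virus probes set the background. 

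Dye and array were tested with limma 3.58.1 in R 4.3.3 (lmFit, eBayes, Benjamini-Hochberg). On simulated data with 200 of 1019 probes changed, the dye test recovered 0% at 0.5 or 1 log2 and 49% at 2 log2. The spread and the fit were those of all 1019 probes, so these rates do not cover the fit over the bright probes alone. P-values rest on 1 residual degree of freedom per probe and on a spread pooled over probes, and the number of arrays limits the precision. In the fit over the bright probes alone every probe has the same pooled variance. Those p-values therefore do not measure each probe's own spread between hearts. Members, lists and rules were chosen with earlier results of these data known. The text names the 30 brightest probes, probes lacking a value, the 10 brightest star probes, the 10 largest star excesses, the 10 largest called differences in each direction, the 10 largest SDs, 5 probes on each side of background, cell type markers, and the highest and lowest family members.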

Additional observations from a re-analysis of the deposited data

Results flagged for a closer look

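Of 100 measures with a value in each of the 4 hearts, 4 had a heart far from the others by a gap test that chance meets in about 1 of 20 groups. That count is no larger than this rate gives by chance. The miR-21 probe, a fibroblast-associated microRNA, stood out upwards in Hy5 replicate 2, at 6.74 against 4.80 to 5.10 in the other hearts (gap over range 0.846), and was above background there only. The miR-30c probe was low in the same heart, at 10.90 against 11.03 to 11.05 (0.873), a small step on a steady probe. The miR-214 probe, at 5.87 against 6.24 to 6.30 (0.855), and the miR-223 probe, at 6.10 against 6.72 to 6.80 (0.885), were both low in Hy5 replicate 4.

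Signal was also present on probes that name no mouse microRNA. Of 1117 probes with only a human or rat name, 42 (3.76%) were above background in all 4 hearts. With means over the hearts that had a value, 3 of these probes were brighter than every mouse probe, namely hsa-miR-3613-3p at 13.68 (3 hearts), hsa-miR-1260b at 13.30 (4 hearts) and hsa-miR-1280 at 13.12 (2 hearts).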

How the results depend on the processing

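The 30 brightest probes shared 28 to 30 members with those of every alternative tried (background correction, processed and deposited values, marked spots kept, spot median, no scaling, each dye alone and each replicate left out, 28 to 30). The probes that fell out, to places 31 to 34, were let-7b, let-7i, let-7c and miR-582-3p. The probe of miR-22 was second, behind miR-451, with normexp and offset 50 or 0, with Hy5 alone and without replicate 3. On those settings the miR-451 mean rests on replicates 3 and 4 or on replicate 4 alone. The probe of miR-720, whose only value is in replicate 3, has no place with Hy5 alone or without replicate 3. Subtracting the local background, an alternative chosen after seeing the data, left all 30. The count of 110 probes above background was 60 and 32 with the stricter levels, and 110 to 144 with each replicate left out. The 10 brightest probes held 24.2% with normexp and offset 0, where Hy3 replicate 1 fell to 7.60%, and 48.5% over probes above background alone. Star probes held 20.7% and 9.48% on those settings. With each replicate left out, the 10 brightest held 33.0% to 36.7% and star probes 14.6% to 16.3%. The 671 dye calls were 52 with loess (29 higher, 23 lower in Hy5), 431 without scaling, 426 with median centring, 24 over bright probes, and 0 with normexp and offset 50 (4 at an unadjusted p under 0.05) or the deposited values (191). They ranged from 0 to 768 with each replicate left out, being 0 without replicate 2 (496 at an unadjusted p under 0.05) and 0 without replicate 4 (517). These each leave Hy5 with 1 heart that is assumed to vary like the Hy3 hearts, and the median difference stayed at -1.62 and -1.71 log2. With normexp and offset 50, all 8 probes higher in Hy5 turned, with differences of -1.36 (miR-140), -1.09 (miR-34c), -1.23 (miR-106b*), -1.54 (miR-181a-2*), -1.60 (miR-466g), -1.65 (miR-701*), -1.52 (miR-582-5p) and -1.64 (miR-590-3p). The array calls numbered 11 without scaling, 14 with median centring and 3 over bright probes. The cause of these shifts was not tested. No paired analysis was possible by replicate number, because replicate numbers recur only between groups, and 1 group was analysed. The dye comparison is paired by array, since it keeps the array as a term, and gave 668 calls without that term. Probes above background in no heart had a median SD of 1.24 log2 over hearts. That SD includes the offset between dyes, with a median Hy5 minus Hy3 difference of -1.98 log2 in these probes. Values below background were not read as an order of microRNAs.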

Other observations

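Among the probes used to set the background, hsv1-miR-H5-3p, for a herpes virus microRNA, was bright, at 9.41 and 9.58 in the Hy5 hearts and 9.39 and 9.25 in the Hy3 hearts. Only 20 mouse probes were brighter. The next virus probes, hsv2-miR-H6* and hsv1-miR-H4*, averaged 7.07 and 6.86. A probe of a sequence that the tissue should lack can thus rank with the 30 brightest mouse probes, and whether mouse RNA binds it was not tested.

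Further human-named probes were bright and steady, such as hsa-miR-3133 at 9.14 ± 0.07, hsa-miR-4286 at 9.09 ± 0.19 and hsa-miR-3686 at 9.04 ± 0.30 (SD, n = 4).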
